A study of Mus musculus with 7 samples.

Results

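The genes of the tumour necrosis factor (TNF) superfamily were followed across 7 one-colour Affymetrix arrays of mouse intestine. Members were all genes whose symbol begins with Tnfsf or Tnfrsf and a number, together with Tnf, Lta, Ltb, Ltbr, Fas, Fasl, Cd40 and Cd27. The rule used gene symbols and no measured value. It found 37 of the 19938 genes with a single symbol, 13 of them ligands and 24 receptors, each measured by 1 probe set. The series compared wild-type (WT) mice with Atg4b knock-out (KO) mice, which lack a cysteine protease that processes the LC3 and GABARAP proteins of autophagosomes. DSS colon, from mice that drank dextran sulfate sodium (DSS), a chemical that damages the epithelial lining and induces colitis, gave 2 KO arrays and 1 WT array. These mice had 7 days of DSS followed by 3 days of water. Untreated mice gave 1 KO and 1 WT array of ileum and 1 KO and 1 WT array of colon. All mice were 3 months old and of a mixed C57Bl6/129Sv background. Whether every array comes from its own animal is not stated in the labels, and p-values speak only for these arrays. Only KO DSS colon has more than 1 array. The error of the fits below therefore rests on that pair and on how KO minus WT differs between conditions. It is not a spread among replicates of each group.

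TNF superfamily ligands are made mostly as trimeric membrane proteins, some of which are cut loose by proteases, and they cluster receptors on other cells. Receptors with a death domain can recruit adaptors that lead to caspases, and many of the others recruit TRAF adaptors that activate NF-κB, a family of transcription factors. In the gut TNF drives inflammation and is a target of therapy in inflammatory bowel disease, lymphotoxin organises lymphoid tissue, and BAFF (the product of Tnfsf13b) keeps B cells alive.

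On these arrays the intensity is given per probe set, and log2 of it is used throughout. The median probe-set intensity was between 121.4 and 126.45 on the 7 arrays, and the number of arrays limits the precision. Atg4b was at 5.39 to 5.45 in the 4 KO arrays and at 7.35 to 7.72 in the 3 WT arrays. The ileal gene Fabp6 was at 12.30 to 12.78 in ileum and at 5.17 to 5.39 in colon, and the colonic gene Car1 was at 6.55 to 8.88 in ileum and at 12.26 to 13.60 in colon. The female-specific RNA Xist was at 12.16 to 12.55 in the 3 DSS arrays and at 5.19 to 5.52 in the 4 control arrays. The Y-linked Eif2s3y was at 4.28 to 4.39 in DSS arrays and at 9.39 to 9.77 in control arrays, which went against the labelled sex in all 3 WT arrays. DSS and measured sex therefore cannot be told apart in any comparison below of DSS colon with control arrays, which includes the interaction. Within DSS colon the KO and WT arrays had the same measured sex. Of the 37 members 27 lay above the lower quartile of all genes on every array. The ligands Fasl, Tnfsf4, Tnfsf8, Tnfsf14 and Tnfsf18, which act on Fas, Tnfrsf4, Tnfrsf8, Tnfrsf14 and Tnfrsf18, and the receptor Tnfrsf26 lay below it on all 7 arrays, as did 21.1% of all genes, and the other 4 members did so on some arrays. Fasl ranged from 4.89 to 5.12, Tnfsf4 from 4.72 to 5.19, Tnfsf8 from 4.58 to 4.79, Tnfsf14 from 5.05 to 5.39, Tnfsf18 from 4.55 to 4.79 and Tnfrsf26 from 5.32 to 5.52. For these 6 dim members the arrays give little room to see a difference.

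In DSS colon Tnf itself, its receptors Tnfrsf1b and Tnfrsf1a, the TRAIL gene Tnfsf10, the death receptor Fas and the receptors Cd40, Tnfrsf14, Tnfrsf23 and Ltbr rose, as did the ligands Tnfsf9 and Tnfsf13b, while Tnfrsf17, a receptor of plasma cells, fell. In limma (a model of condition and genotype, 3 DSS against 2 control colon arrays, Benjamini-Hochberg adjustment over all genes), 11 of 37 members were higher at an adjusted p under 0.05, beside 7.20% of all genes, and 1 was lower, beside 3.43%. By role, 4 of 13 ligands and 7 of 24 receptors were higher. The median difference was 0.12 log2 units over the members and -0.01 over all genes. All 3 DSS arrays lay above both control colons for 17 of 37 members, beside 22.1% of all genes, and below both for 3, beside 18.0%.

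Tnf, the cytokine released by activated macrophages and T cells, had log2 intensities of 9.17 and 9.49 in KO DSS colon and 9.92 in WT DSS colon, against 6.94 in KO and 6.63 in WT control colon. All 3 DSS arrays were above both control colons, with the WT array highest. The DSS difference was 2.76 ± 0.23 (SE of the fit), a 6.76-fold rise (adjusted p = 0.00244 in limma). Ltb and Lta, the lymphotoxin genes that lie on either side of Tnf on chromosome 17, did not pass. Ltb was at 7.31 and 7.40 in KO and 7.57 in WT DSS colon, against 7.23 in KO and 6.84 in WT control colon, a difference of 0.41 ± 0.18. Lta was at 5.94 and 5.84 in KO and 5.98 in WT DSS colon, against 6.27 in KO and 5.82 in WT control colon, a difference of -0.14 ± 0.15, and its groups overlapped. Of these 3 neighbouring genes Tnf passed and the others did not, a difference between genes that was not tested.

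The sequences before the starts of these 3 neighbours and of the 3 other members with the widest DSS differences are shown so that the letters can be read beside the values. Each is the 250 bases upstream of the start in RefSeq on GRCm38.p6, written 5′ to 3′ along the gene. Capitals mark matches to the NF-κB motif or to TATAAA on either strand.
Tnf, chr17:35202008-35202257, minus strand: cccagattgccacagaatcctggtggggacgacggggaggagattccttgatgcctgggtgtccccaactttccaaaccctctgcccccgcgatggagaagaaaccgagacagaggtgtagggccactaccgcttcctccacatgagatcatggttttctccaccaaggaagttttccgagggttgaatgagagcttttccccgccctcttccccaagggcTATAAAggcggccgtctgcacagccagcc
Ltb, chr17:35194257-35194506, plus strand: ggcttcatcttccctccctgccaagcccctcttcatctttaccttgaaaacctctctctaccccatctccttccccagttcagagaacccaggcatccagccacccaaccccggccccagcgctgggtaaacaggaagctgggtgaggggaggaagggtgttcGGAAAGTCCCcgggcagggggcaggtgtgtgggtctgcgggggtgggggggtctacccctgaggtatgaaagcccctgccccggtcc
Lta, chr17:35205352-35205601, minus strand: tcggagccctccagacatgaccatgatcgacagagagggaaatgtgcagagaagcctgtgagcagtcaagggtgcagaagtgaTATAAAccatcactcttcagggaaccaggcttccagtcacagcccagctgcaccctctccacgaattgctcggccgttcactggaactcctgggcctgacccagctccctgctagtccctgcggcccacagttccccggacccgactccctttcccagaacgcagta
Tnfrsf1b, chr4:145246871-145247120, minus strand: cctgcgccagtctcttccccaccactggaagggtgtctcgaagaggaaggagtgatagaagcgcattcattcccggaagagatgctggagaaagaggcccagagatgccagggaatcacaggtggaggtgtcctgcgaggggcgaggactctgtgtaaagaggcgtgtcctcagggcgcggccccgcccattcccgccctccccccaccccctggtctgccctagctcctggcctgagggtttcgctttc
Tnfsf10, chr3:27316827-27317076, plus strand: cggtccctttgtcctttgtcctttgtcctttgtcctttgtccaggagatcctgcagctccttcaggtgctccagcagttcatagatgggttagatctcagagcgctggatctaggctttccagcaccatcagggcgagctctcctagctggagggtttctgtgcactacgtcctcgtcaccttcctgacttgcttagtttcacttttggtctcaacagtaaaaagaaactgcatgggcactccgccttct
Tnfrsf23, chr7:143685876-143686125, minus strand: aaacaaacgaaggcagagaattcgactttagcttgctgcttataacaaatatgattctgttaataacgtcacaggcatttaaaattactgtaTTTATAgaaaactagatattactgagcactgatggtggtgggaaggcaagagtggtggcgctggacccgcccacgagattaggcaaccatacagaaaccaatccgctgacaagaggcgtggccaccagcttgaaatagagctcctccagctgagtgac

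Promoter windows of 300 bases (250 before to 50 after the start) were at hand for 30 of the 37 members. The NF-κB motif was searched on both strands with overlapping matches allowed. It was present for 4 of the 30 members, Ltb, Tnfrsf8, Tnfrsf9 and Tnfrsf25, against 9.55% of all 27025 genes with a window. The Ltb match, GGGACTTTCC on the opposite strand, began 87 bases before the start. Of the 9 members with a window that rose in DSS colon, 0 held the motif. In Tnf the letters TATAAA stood 29 bases before the start, and they were present on either strand in 13.6% of all windows. A match describes the letters only, and the lack of one says only that these letters are not in this window.

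Tnfsf10 encodes TRAIL, a ligand of death receptors that interferons can induce. It was at 8.60 and 9.58 in KO and 9.32 in WT DSS colon, against 7.15 in KO and 7.00 in WT control colon. The KO DSS arrays differed from each other by 0.98, and both were still above the controls. The difference was 2.07 ± 0.31 (adjusted p = 0.0139). Tnfrsf23, a mouse decoy receptor for TRAIL that lacks a death domain, was at 8.35 and 8.38 in KO and 7.85 in WT DSS colon, against 6.64 in KO and 6.52 in WT control colon. The DSS difference of 1.58 ± 0.14 (adjusted p = 0.00308) stands beside those of its neighbours on chromosome 7, Tnfrsf22 and Tnfrsf26, which were at -0.01 ± 0.13 and 0.08 ± 0.10 and did not pass. These 3 are related genes, and how far each probe set reads its relatives is not known here. Tnfrsf10b, the TRAIL receptor with a death domain, was at 8.35 and 8.56 in KO and 8.42 in WT DSS colon, against 7.88 in KO and 8.18 in WT control colon. Its groups did not overlap, but the difference of 0.40 ± 0.18 did not pass (adjusted p = 0.222).

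Both receptors for TNF rose. Tnfrsf1b, the receptor found mainly on leukocytes and endothelium, was at 9.97 and 10.42 in KO and 10.44 in WT DSS colon, against 8.27 in KO and 8.08 in WT control colon. The rise was 2.11 ± 0.17, or 4.30-fold (adjusted p = 0.0022). Tnfrsf1a, the broadly expressed receptor with a death domain, was at 10.47 and 10.66 in KO and 10.45 in WT DSS colon, against 9.34 in KO and 9.65 in WT control colon, a rise of 1.04 ± 0.13 (adjusted p = 0.00818). Tnfrsf1b lies next to Tnfrsf8, the gene of CD30, on chromosome 4. Tnfrsf8 was at 6.18 and 7.03 in KO DSS colon and at 5.87 in WT DSS colon, against 6.12 in KO and 5.89 in WT control colon. KO DSS replicate 2 stood above all other arrays for Tnfrsf8, and the DSS difference of 0.29 ± 0.28 did not pass.

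**Figure D1:**
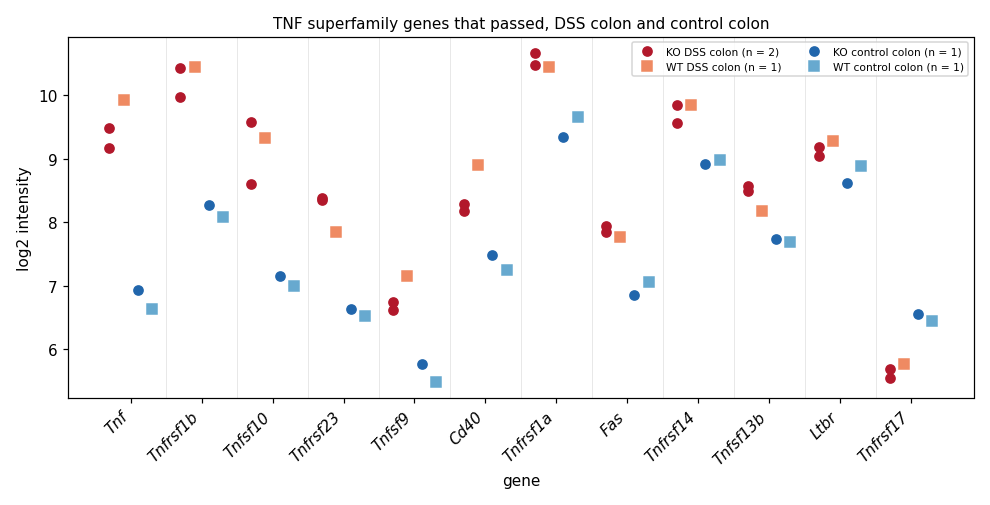
Log2 intensity of the 12 members that passed in DSS colon against control colon, in order of their difference. Each point is 1 array, circles are KO and squares WT, and for every gene the 3 DSS arrays lie on one side of both control colons.

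Fas, the death receptor for Fasl, was at 7.84 and 7.94 in KO and 7.76 in WT DSS colon, against 6.85 in KO and 7.06 in WT control colon. It rose by 0.89 ± 0.12 (adjusted p = 0.00843). Among costimulatory molecules, Cd40, which activates B cells and macrophages, was at 8.18 and 8.28 in KO and 8.90 in WT DSS colon, against 7.48 in KO and 7.24 in WT control colon. Its rise was 1.14 ± 0.20 (adjusted p = 0.0209). Tnfsf9, a ligand that costimulates T cells through Tnfrsf9, was at 6.74 and 6.62 in KO and 7.15 in WT DSS colon, against 5.76 in KO and 5.49 in WT control colon. That rise was 1.25 ± 0.18 (adjusted p = 0.0114), from control values below the lower quartile, where a fold may be understated. Tnfrsf9 was at 6.78 and 7.00 in KO and 6.57 in WT DSS colon, against 6.56 in KO and 6.31 in WT control colon, and its difference of 0.30 ± 0.11 did not pass (adjusted p = 0.145).

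Tnfrsf14, a receptor of the intestinal epithelium and lymphocytes that binds Tnfsf14, was at 9.56 and 9.84 in KO and 9.84 in WT DSS colon, against 8.91 in KO and 8.98 in WT control colon. It rose by 0.81 ± 0.12 (adjusted p = 0.0128), while Tnfsf14 was dim on every array. Ltbr, the lymphotoxin receptor that shapes lymphoid organs, was at 9.04 and 9.18 in KO and 9.27 in WT DSS colon, against 8.61 in KO and 8.89 in WT control colon. Its difference of 0.45 ± 0.10 was just past the threshold (adjusted p = 0.0428) and lost the call in 12 of 16 alternative settings. The other ligands and receptors did not pass. These include Tnfsf11 (0.12 ± 0.20), the RANK ligand that induces M cells over lymphoid follicles, its receptor Tnfrsf11a (-0.18 ± 0.09) and its soluble decoy Tnfrsf11b (0.29 ± 0.13). Tnfsf15, whose product TL1A costimulates T cells, and its receptor Tnfrsf25 stood at -0.01 ± 0.19 and -0.12 ± 0.12. The costimulatory receptors Tnfrsf4, Tnfrsf18 and Cd27 had differences between -0.06 and 0.10. Tnfrsf12a, the receptor for TWEAK, was at 0.20 ± 0.16, and Tnfrsf21, a receptor with a death domain, was at 0.00 ± 0.14. Over the 7 arrays Tnfsf11 ranged from 7.52 to 8.38, Tnfrsf11b from 7.14 to 7.90, Tnfrsf12a from 7.72 to 8.52 and Tnfrsf25 from 6.57 to 6.90. Tnfsf15 ranged from 6.66 to 7.41, Tnfrsf22 from 6.90 to 7.35 and Tnfrsf13b from 7.04 to 7.55. Tnfrsf4 ranged from 6.61 to 6.81, Tnfrsf18 from 6.99 to 7.29 and Cd27 from 6.25 to 6.42. Tnfrsf19, known as a Wnt target in crypt stem cells, was at 6.55 and 6.44 in KO and 6.38 in WT DSS colon, against 6.86 in KO and 6.66 in WT control colon, a difference of -0.32 ± 0.10 (adjusted p = 0.0981).

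**Figure D2:**
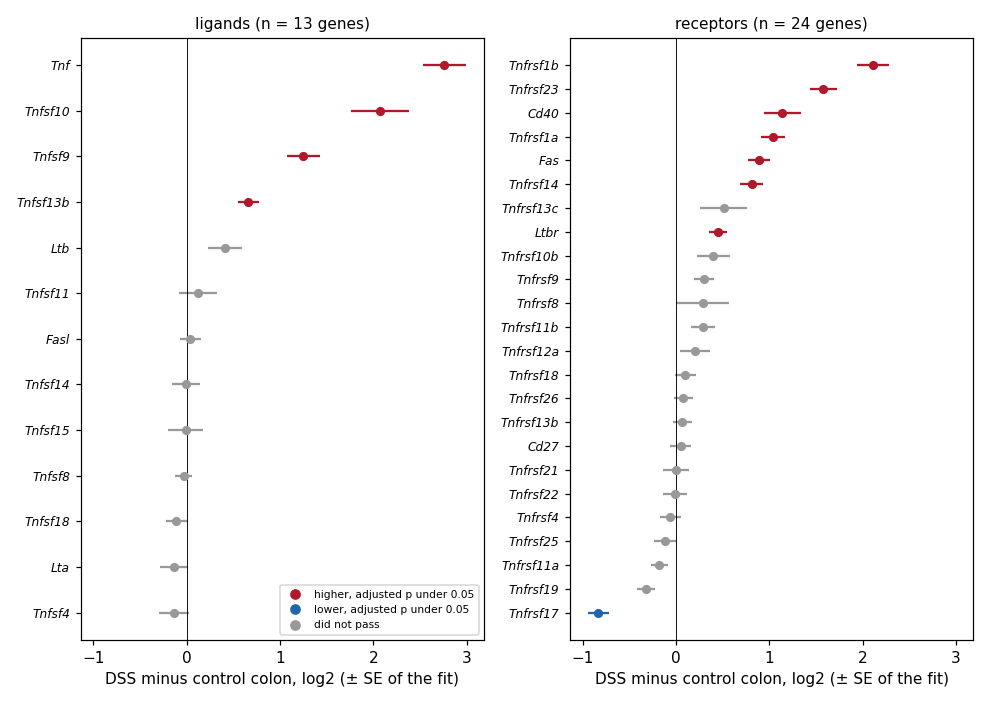
DSS minus control colon on the log2 scale for 13 ligands and 24 receptors, with the SE of the fit as bars. Tnf leads the ligands at 2.76 and Tnfrsf1b the receptors at 2.11, and Tnfrsf17 at -0.83 is the only member below zero that passed.

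In the BAFF system the ligand rose and 1 of 3 receptors fell. Tnfsf13b, the ligand, was at 8.49 and 8.57 in KO and 8.18 in WT DSS colon, against 7.74 in KO and 7.69 in WT control colon, and rose by 0.66 ± 0.11 (adjusted p = 0.0196). Tnfrsf17, the receptor BCMA of plasma cells, was at 5.55 and 5.69 in KO and 5.76 in WT DSS colon, against 6.56 in KO and 6.45 in WT control colon. It fell by 0.83 on the log2 scale (SE 0.11, adjusted p = 0.00953), and both KO DSS arrays were below the lower quartile. Tnfrsf13c, the BAFF receptor of mature B cells, was at 8.84 and 8.91 in KO and 9.61 in WT DSS colon, against 8.83 in KO and 8.45 in WT control colon. The WT DSS array was highest and the KO DSS arrays were within 0.08 of the KO control colon, and the difference of 0.51 ± 0.25 did not pass. Tnfrsf13b, the receptor TACI, stood at 0.07 ± 0.10.

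Markers of B lineage cells are given beside these receptors. The plasma cell gene Jchain was at 9.99 and 10.12 in KO and 9.50 in WT DSS colon, against 11.46 in KO and 11.11 in WT control colon, and fell by 1.46 on the log2 scale (SE 0.16, adjusted p = 0.00507). The other plasma cell genes, Mzb1 (-0.26 ± 0.16, adjusted p = 0.391) and Derl3 (-0.18 ± 0.15, adjusted p = 0.528), did not pass. The B cell gene Ms4a1 was at 7.96 and 8.28 in KO and 8.56 in WT DSS colon, against 7.96 in KO and 6.88 in WT control colon. The 6 B cell genes of the list had positive differences, from 0.27 for Blk to 0.79 for Ms4a1, and 0 of them passed. In bulk tissue fewer cells of a type and less RNA per cell cannot be told apart. The summed intensity of 9 B and plasma cell markers was 3120 to 3980 in DSS and 3783 to 5264 in control colon. Of these markers 0 were higher, beside 7.20% of all genes, and 1, Jchain, was lower, beside 3.43%. The part of cell numbers in the values of Tnfrsf17 and Tnfrsf13c was not tested.

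**Figure D3:**
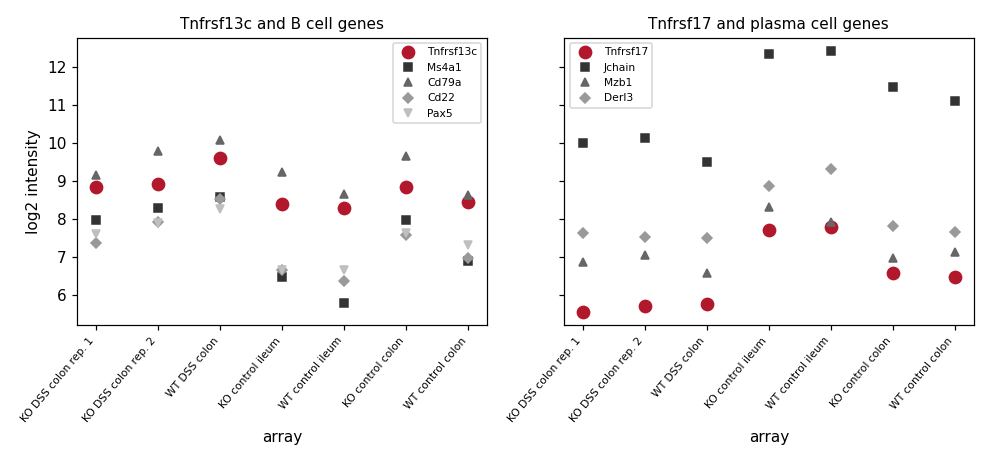
Log2 intensity on each of the 7 arrays of Tnfrsf13c with 4 B cell genes (left) and of Tnfrsf17 with 3 plasma cell genes (right), 1 point per array and gene. Tnfrsf17 and Jchain are both lowest in the 3 DSS arrays, and Tnfrsf13c, Ms4a1, Cd22 and Pax5 are all highest in WT DSS colon.

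Other cell markers moved with DSS beside these results, and 7.20% of all genes were higher and 3.43% lower. All 10 neutrophil markers rose, with a summed intensity of 1898 to 2886 in DSS and 460 to 553 in control colon, where 5 to 7 of the 10 lay below the lower quartile. Of 11 macrophage and monocyte markers 5 rose, and their summed intensity was 5991 to 6669 in DSS and 4223 to 4672 in control colon. Of 11 T cell markers 0 passed, with sums of 968 to 1154 in DSS and 938 to 962 in control colon. All 11 smooth muscle markers had negative differences, from -0.52 for Mylk to -2.04 for Actg2, and 2 passed, Des and Acta2. Their sums were 8333 to 25585 over the 11 in DSS and 37645 to 38710 in control colon. Of 11 epithelial markers 1 rose, Krt20, with sums of 48864 to 49777 in DSS and 43724 to 45950 in control colon. The part of these cell types in the DSS differences of the superfamily was not tested.

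The DSS calls rested on single arrays to different degrees. Tnf (2.42 to 3.07) and Tnfrsf1b (1.96 to 2.29) passed in all 7 fits that left out 1 array. Of the 12 members 3 passed without the KO control colon, 4 without the WT control colon, 6 when the WT DSS array was left out and 9 when KO DSS replicate 2 was, all with the same direction. Over all genes 183, 216, 526 and 800 passed in the same 4 fits, against 2120 with every array.

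Genes that carry the signal inside the cell were followed by lists, which were chosen with earlier results of these data known. The list counts stand beside 7.20% of all genes higher in DSS colon and 3.43% lower. In the list of death-domain and TRAF adaptors 4 of 16 measured genes were higher and 0 lower, with a list median of 0.34. Ripk3, the kinase of necroptosis, rose by 2.31 ± 0.19 (adjusted p = 0.00244) and its substrate Mlkl by 1.86 ± 0.19 (adjusted p = 0.00388). The caspase Casp8 rose by 0.66 ± 0.11, its regulator Cflar by 0.49 ± 0.11, and the adaptor Tradd stood at 0.61 ± 0.18 without passing. In the NF-κB list 8 of 16 were higher and 0 lower, with a median of 0.48. The atypical inhibitor proteins Bcl3 (1.29 ± 0.18) and Nfkbiz (1.06 ± 0.17), the subunit Rel (1.12 ± 0.24) and the inhibitor Nfkbia (0.96 ± 0.10) had the widest differences. Of 12 ubiquitin ligases and brakes 2 were higher, Tnfaip3 (0.84 ± 0.12) and Rnf31 (0.80 ± 0.11), with a median of 0.32. Tnip3 stood at 1.45 ± 0.36 and Cyld, a deubiquitinase, at 0.42 ± 0.12, and neither passed. Of 5 genes of shedding 2 were higher, Rhbdf2, which guides Adam17 to the surface (0.72 ± 0.13), and the protease Adam10 (0.43 ± 0.11). Adam10 was at the threshold (adjusted p = 0.0496). Adam17, the protease that releases TNF, stood at 0.52 ± 0.14 (adjusted p = 0.0604), and Timp3, which inhibits it, at -0.10 ± 0.15.

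Genes that TNF is known to induce rose in 12 of 16 cases, beside 7.20% of all genes, and fell in 0, beside 3.43%. Their median was 2.22. The list was chosen with earlier results of these data known, and the part of TNF in these rises was not tested. The chemokine Cxcl10 rose by 4.36 ± 0.17, the neutrophil chemokines Cxcl2 and Cxcl5 by 3.76 ± 0.27 and 2.70 ± 0.55, and the siderophore-binding protein Lcn2 by 3.56 ± 0.28. Of 6 genes linked to lymphotoxin signalling 1 was higher, the mucosal addressin Madcam1 (0.65 ± 0.15), with a median of 0.53. Cr2 (1.15 ± 0.48), Ccl19 (1.06 ± 0.29) and Cxcl13 (0.41 ± 0.40) did not pass. Superfamily genes that the symbol rule left out were Cd40lg, Cd70, Eda, Edar, Eda2r, Ngfr and Relt. None of them passed, with Ngfr (-0.27 ± 0.15), Relt (0.14 ± 0.17) and Cd70 (-0.11 ± 0.13) the widest. Cd40lg, Cd70 and Eda2r lay below the lower quartile on all 7 arrays, which leaves little room to see a difference in these genes. Their list of 8 had a median of -0.07, and its other gene was Pglyrp1 (0.69 ± 0.17, adjusted p = 0.0537), which encodes a peptidoglycan recognition protein and is no member of the family.

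In control ileum against control colon, 6 of 37 members were higher, beside 5.94% of all genes, and 2 were lower, beside 3.22% (limma, 2 against 2 arrays). The higher ones were Tnfsf10, Tnfrsf17, Tnfsf13b, Tnfrsf14, Fas and Tnfrsf1a, and the lower ones Tnfrsf21 and Tnfrsf11a. The median over the members was -0.04, against -0.02 over all genes. Both ileum arrays lay above both colons for 11 of 37 members, beside 25.8% of all genes, and below both for 11, beside 28.2%.

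Tnfsf10 was at 9.57 in KO and 8.95 in WT ileum, against 7.15 in KO and 7.00 in WT colon, a difference of 2.19 ± 0.34 (adjusted p = 0.0113). Tnfsf13b was at 8.95 in KO and 8.64 in WT ileum, against 7.74 in KO and 7.69 in WT colon (1.08 ± 0.12, adjusted p = 0.00331). Tnfrsf17 was at 7.70 in KO and 7.79 in WT ileum, against 6.56 in KO and 6.45 in WT colon (1.24 ± 0.12, adjusted p = 0.00197). The BAFF ligand and the plasma cell receptor were thus both higher in ileum. Tnfrsf13c, the receptor of mature B cells, was at 8.38 in KO and 8.28 in WT ileum, against 8.83 in KO and 8.45 in WT colon, and did not pass (-0.31 ± 0.27). The 3 plasma cell markers were higher in ileum as well, Jchain by 1.09 ± 0.17, Mzb1 by 1.08 ± 0.18 and Derl3 by 1.36 ± 0.16. The 6 B cell markers had negative differences, from -1.29 ± 0.37 for Ms4a1 to -0.19 ± 0.41 for Cd79a, and 0 of them passed. The median of all 9 markers was -0.31, while their summed intensity, to which Jchain with log2 values of 12.33 and 12.42 in ileum gave the most, was 7237 to 7392 in ileum and 3783 to 5264 in colon.

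Tnfrsf14 was at 9.90 in KO and 9.93 in WT ileum, against 8.91 in KO and 8.98 in WT colon (0.97 ± 0.13, adjusted p = 0.00663). Fas was at 7.84 in KO and 7.88 in WT ileum, against 6.85 in KO and 7.06 in WT colon (0.90 ± 0.13, adjusted p = 0.00737). Tnfrsf1a was at 10.36 in KO and 10.40 in WT ileum, against 9.34 in KO and 9.65 in WT colon (0.89 ± 0.14, adjusted p = 0.0135). In all 3 genes the ileum arrays were above both colons and within 0.05 of each other. Tnfrsf21 was at 9.80 in KO and 9.82 in WT ileum, against 10.46 in KO and 10.97 in WT colon (-0.90 ± 0.15, adjusted p = 0.0158). Tnfrsf11a, the receptor RANK, was at 9.94 in KO and 10.06 in WT ileum, against 10.40 in KO and 10.51 in WT colon. Its difference of -0.46 ± 0.10 (adjusted p = 0.041) lost the call in 9 of 15 alternative settings. In DSS colon Tnfrsf21 was at 10.73 and 10.59 in KO and 10.72 in WT, and Tnfrsf11a at 10.19 and 10.24 in KO and 10.34 in WT.

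**Figure D4:**
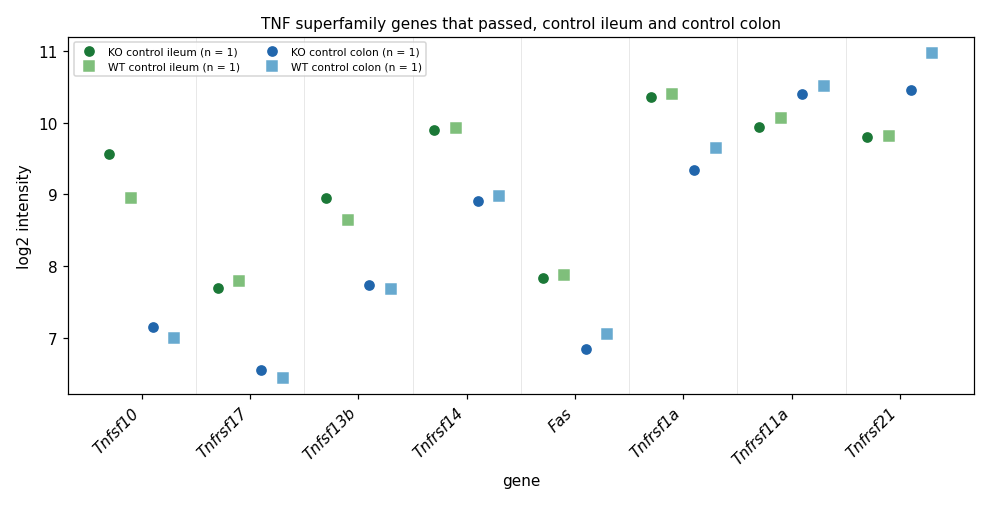
Log2 intensity of the 8 members that passed between control ileum and control colon, with 1 array per genotype and tissue. Tnfsf10 shows the widest difference at 2.19, and only Tnfrsf11a and Tnfrsf21 are lower in ileum.

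Tnf was at 7.19 in KO and 7.01 in WT ileum, against 6.94 in KO and 6.63 in WT colon, and did not pass (0.32 ± 0.25). Tnfrsf1b (-0.16 ± 0.19), Tnfrsf23 (-0.02 ± 0.15), Cd40 (-0.18 ± 0.22) and Tnfsf9 (0.16 ± 0.19), all of which rose in DSS colon, did not pass either. Tnfrsf1b was at 8.01 in KO and 8.01 in WT ileum, and Tnfrsf23 at 6.56 in KO and 6.55 in WT ileum. Cd40 was at 7.05 in KO and 7.29 in WT ileum, and Tnfsf9 at 5.62 in KO and 5.95 in WT ileum. Ltbr was at 8.86 in KO and 9.04 in WT ileum, with a difference from colon of 0.19 ± 0.11 that did not pass. The 5 genes named after Tnf had tissue differences between -0.18 and 0.19. The DSS and tissue comparisons share the 2 control colon arrays, so their values are given side by side without a test. Tnfsf10 stood at 2.07 for DSS and 2.19 for ileum, Tnfrsf14 at 0.81 and 0.97, Fas at 0.89 and 0.90, Tnfrsf1a at 1.04 and 0.89, and Tnfsf13b at 0.66 and 1.08. Tnfrsf17 stood at -0.83 for DSS and 1.24 for ileum. The marker counts that follow stand beside 5.94% of all genes higher in ileum. Of 11 T cell markers 3 were higher in ileum (Cd3e, Cd3g and Cd8a), with sums of 1731 to 2132 in ileum and 938 to 962 in colon. Of 8 natural killer and cytotoxic cell markers 3 were higher (sums of 1295 to 1527 and 442 to 491), and of 7 adipocyte markers 4 (5569 to 6007 and 899 to 2787). Of 11 epithelial markers 3 were higher, Cdx2 (1.47 ± 0.30), Vil1 (1.28 ± 0.10) and Krt20 (1.10 ± 0.12), with sums of 49499 to 55274 in ileum and 43724 to 45950 in colon. Of 11 macrophage and monocyte markers 2 were higher (5930 to 9054 in ileum and 4223 to 4672 in colon), as were 2 of 7 dendritic cell markers (870 to 1227 and 713 to 735). The part of these cells in the tissue differences was not tested.

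The counts of the signalling lists stand beside 5.94% of all genes higher in ileum and 3.22% lower. The adaptors had 3 of 16 genes higher in ileum, Ripk3 (0.97 ± 0.21), Bid (0.96 ± 0.13) and Casp8 (0.71 ± 0.12), and 0 lower. The NF-κB list had 3 of 16 higher, Relb (0.96 ± 0.13), Nfkbib (0.87 ± 0.12) and Nfkbia (0.68 ± 0.11), and 0 lower. Of the 16 genes that TNF can induce 1 was higher, Tnfaip2 (0.76 ± 0.15), and 0 were lower. Of the 12 brakes 1 was lower, Tnip3 (-3.52 ± 0.39), a partner of Tnfaip3, and of the 6 lymphotoxin genes 1 was lower, Glycam1 (-0.78 ± 0.18). Of the 5 shedding genes and the list of 8 with the genes outside the symbol rule 0 passed.

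Single arrays decided several tissue calls. Tnfrsf17 (1.12 to 1.35) and Tnfsf13b (0.94 to 1.22) passed without each array in turn. Of the 8 members 2 passed without the KO ileum, 3 without the KO colon, 4 without the WT ileum and 4 without the WT colon. All 8 kept their direction in these fits. Over all genes 709, 660, 1003 and 812 passed in the same 4 fits, against 1826 with every array.

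No member passed between KO and WT. Across the 3 conditions (4 KO against 3 WT arrays) 0 of 37 members passed in limma, beside 0.00502% of all genes, which is Atg4b alone. At an unadjusted p under 0.05 there were 2 members, Tnfrsf9 and Tnfsf13b, beside 3.61% of all genes. The widest positive values were 0.35 ± 0.24 for Tnfrsf8, 0.26 ± 0.09 for Tnfrsf9 and 0.24 ± 0.09 for Tnfsf13b. The widest negative values were -0.27 ± 0.17 for Cd40, -0.21 ± 0.15 for Tnfsf9 and -0.20 ± 0.09 for Ltbr, and the adjusted p was 0.989 for each of these 6. Leaving out 1 array moved several of these values by more than 1.5 times. With KO DSS replicate 2 left out Tnfrsf8 was at 0.17, with the WT array of DSS colon left out at 0.10, and with either ileum left out at 0.52. Tnfsf9 was at -0.03 without the WT DSS array and -0.41 without either control colon. Cd40 was at 0.0012 without the WT DSS array and -0.49 without either control colon. Tnfrsf8 was at 5.75 in KO and 5.78 in WT ileum, and Tnfrsf9 at 6.60 in KO and 6.41 in WT ileum. Tnfrsf9 was higher in KO in each condition, by 0.32 in DSS colon, 0.19 in ileum and 0.24 in control colon. Tnfsf13b was so by 0.35, 0.30 and 0.05, and Ltbr was lower in KO by -0.16, -0.17 and -0.28.

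In DSS colon alone (2 KO against 1 WT array, a model with 2 residual degrees of freedom) 0 of 37 members passed, beside 0.00% of all genes. At an unadjusted p under 0.05 there were 4 members, Tnfrsf13c, Cd40, Tnf and Tnfrsf23, beside 3.89% of all genes. KO minus WT was -0.73 ± 0.17 for Tnfrsf13c, -0.67 ± 0.20 for Cd40 and -0.59 ± 0.19 for Tnf, with both KO arrays below the WT array in all 3. It was 0.73 ± 0.34 for Tnfrsf8, 0.51 ± 0.15 for Tnfrsf23 and 0.35 ± 0.16 for Tnfsf13b, with both KO arrays above the WT array in all 3, and an adjusted p of 1 for each of these 6. The value of Tnfrsf8 was 1.16 without KO DSS replicate 1 and 0.31 without KO DSS replicate 2. In control colon the KO minus WT values of Tnfrsf13c, Cd40 and Tnf were 0.37, 0.25 and 0.31, and in control ileum they were 0.10, -0.24 and 0.18.

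The DSS difference itself was 2.39 in KO and 3.29 in WT for Tnf, 0.75 in KO and 1.66 in WT for Cd40, and 0.05 in KO and 1.16 in WT for Tnfrsf13c. The interaction of genotype and DSS sets KO minus WT in DSS colon against KO minus WT in control ileum and control colon together. It is therefore not the difference between the colon values just given. The interaction was -0.83 ± 0.24 for Tnf, -0.67 ± 0.25 for Cd40 and -0.97 ± 0.21 for Tnfrsf13c, with an adjusted p of 1 for each in limma. These were the 3 members at an unadjusted p under 0.05, beside 3.20% of all genes, and 0 of 37 passed the adjusted threshold, beside 0.00% of all genes. Tnfsf10 (-0.62 ± 0.51) and Tnfrsf1b, at 1.92 in KO and 2.36 in WT, did not pass. Neutrophil marker sums were 1898 and 2371 in KO and 2886 in WT DSS colon, and smooth muscle sums were 25585 and 12924 in KO and 8333 in WT DSS colon. The 9 B lineage markers had a median of -0.38 for KO minus WT in DSS colon and of -0.66 for the interaction, and 0 of them passed in either. Cd22 was at 7.35 and 7.91 in KO and 8.53 in WT DSS colon, against 7.57 in KO and 6.97 in WT control colon. The part of these cells in the KO minus WT values was not tested.

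**Figure D5:**
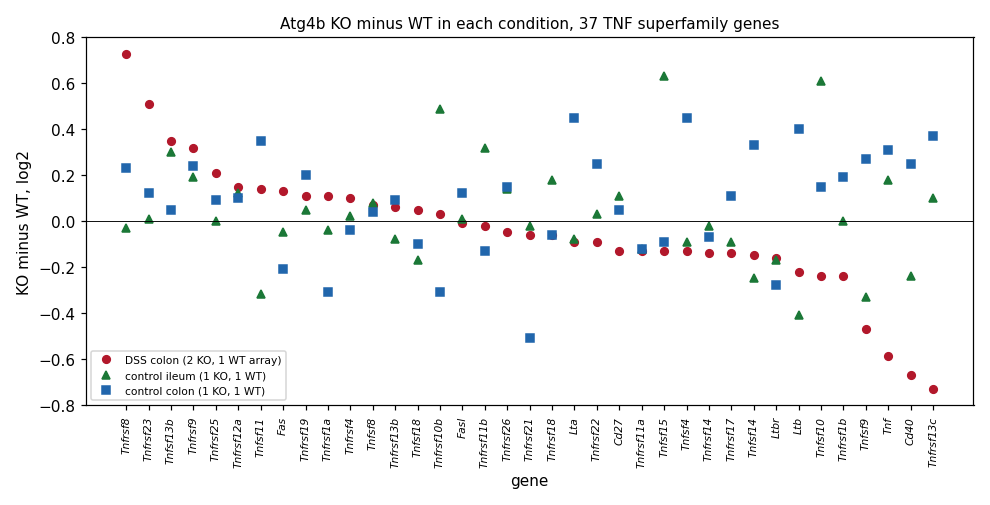
KO minus WT on the log2 scale for the 37 members in DSS colon (circles), control ileum (triangles) and control colon (squares), ordered by the value in DSS colon. In DSS colon Tnfrsf8 is highest at 0.73 and Tnfrsf13c lowest at -0.73, and no member passed.

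In single pairs of control arrays, without a test, the widest KO minus WT values in ileum were 0.63 for Tnfsf15 (7.41 in KO and 6.78 in WT), 0.61 for Tnfsf10 and 0.49 for Tnfrsf10b. In control colon they were -0.51 for Tnfrsf21, 0.45 for Lta, 0.45 for Tnfsf4 and 0.40 for Ltb. Tnfsf15 in control colon and DSS colon stood at -0.09 and -0.13, with the opposite sign to ileum. Of the pathway lists above, 0 genes passed for KO against WT across conditions, in DSS colon or in the interaction.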

How the data were processed

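Per the labels' protocols, total RNA was labelled with biotin for Affymetrix arrays. The authors deposited one linear intensity per probe set and array, from 10.4 to 22236.4, and the sources used here do not give its summary or normalization. Array medians were close, so values were taken as normalized and log2 was computed here, whereas the test had been planned for log2 values. An equalising step, had one been run, would remove any shift common to all genes. Of 35512 probe sets, 21789 had 1 symbol in the platform annotation, and the probe set with the highest mean was used per gene. A probe set shared by several symbols, among them Tnfsf12 and Tnfsf13, was not used.

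limma 3.58.1 in R 4.3.3 was fitted on all 19938 genes, with Benjamini-Hochberg adjustment and a threshold of 0.05. Condition and genotype gave the DSS, tissue and KO comparisons (3 residual degrees of freedom). A genotype by DSS term gave KO against WT in DSS colon and the interaction (2). Errors are standard errors of the fit. The scripts were tested on simulated data. Members and lists were chosen with earlier results of these data known. Values on every array are given for members that passed for DSS or tissue and for the 3 widest each way for KO, and other members by their range or their values in colon. From each pathway list the 4 widest DSS differences are named. Listed genes without a single-symbol probe set (Traf3, Ripk1, Chuk, Nfkb1, Ccl21a, Il22 and 3 markers) were not analysed here. Sequences are from RefSeq on GRCm38.p6, and the build of the array is not given. Alternatives were quantile normalization, median centring, leaving out dim genes, a pseudocount of 16, averaged probe sets, a robust fit with a trend in the variance, sex as labelled, colon arrays alone, a 6-group model and leaving out each array. Figures were drawn with matplotlib 3.10.9.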

Additional observations from a re-analysis of the deposited data

How the results depend on the processing

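The count of members that passed stayed within 1.5 times for DSS (12) and tissue (8) under the alternatives, except under the 6-group model, with 5 and 2, and when single arrays were left out, with 3 to 12 for DSS and 2 to 8 for tissue. The 6-group model estimates its error from the KO DSS pair alone, and fits without an array assume that a lone array varies like the others. All 12 and 8 members kept their direction. The alternatives were not all separate checks. For DSS, colon arrays alone and leaving out either ileum array gave the same values. For tissue, sex as labelled and leaving out the WT DSS array did so. Tnf and Tnfrsf1b passed in all 16 alternatives for DSS, and Tnfrsf17 and Tnfsf13b in all 15 for tissue. For KO against WT and the interaction the count was 0 in every alternative run. KO minus WT of Cd40 across conditions (-0.27) was between -0.49 and 0.0012 with single arrays left out, and changed sign without the WT DSS array. Labelled sex was the same in the WT control and KO DSS arrays and the opposite in the KO control and WT DSS arrays. Beside condition and genotype it therefore overlapped fully with the genotype by DSS term. For this reason it could not be fitted beside the interaction, and as a setting it did not adjust for measured sex. Colon arrays alone were used for DSS, KO in DSS colon and the interaction. No paired analysis was possible because only the KO DSS arrays carry replicate numbers. Dim probe sets limit what could be seen for 6 members.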
